A study of Homo sapiens with 10 samples.

Results

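The genes described here are 10 members of the transforming growth factor beta (TGF-beta) family's signalling entry points: the ligands TGFB1, TGFB2 and TGFB3, the activin subunit INHBA, the latent TGF-beta binding proteins LTBP1 and LTBP2, the signalling receptors TGFBR1 and TGFBR2, and the coreceptors TGFBR3 (betaglycan) and ENG (endoglin). They were measured by every probe set whose annotation names exactly 1 of these 10 genes, which gave 25 probe sets of the 54675 on the array. A probe set is a group of short probes against a gene's transcripts, and a gene can have several. The study compared replicatively senescent with proliferating IMR90 cells, a line of normal human fetal lung fibroblasts, in a series on the loss of lamin B1 in senescence. Senescent cells were used at 90 population doublings, after passaging until growth ceased and a further 2 weeks in culture, and proliferating cells at 28 population doublings. Both were grown in 3% oxygen with 10% serum, and no gene was altered in either. Total RNA was hybridised to 5 arrays of senescent and 5 arrays of proliferating cells. The labels give no separate cultures for the 5 replicates, so the p-values measure the spread between these arrays, which may be technical. State and number of doublings changed together and cannot be told apart.

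TGF-beta ligands are secreted as latent complexes, in which the mature dimer stays bound to its propeptide and is tethered to the matrix through a latent TGF-beta binding protein. Once released, the dimer binds the type II receptor TGFBR2, which phosphorylates the type I receptor TGFBR1, and TGFBR1 then phosphorylates SMAD2 and SMAD3, which enter the nucleus with SMAD4. Betaglycan presents the ligand to TGFBR2, a step on which the TGFB2 ligand depends more than TGFB1 does. Activin A, the dimer of INHBA, acts through its own pair of receptors on the same SMADs. In fibroblasts the pathway is known for driving matrix synthesis and the myofibroblast state, and in many cell types for restraining growth.

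The deposited values are on a log2 scale, and a difference of 1 is 2-fold. A difference is always given as senescent minus proliferating. Testing was limited to probe sets that exceeded the 40th percentile of their array on 5 or more of the 10 arrays, and a difference was called where its adjusted p from limma, with Benjamini-Hochberg adjustment over all 32732 tested probe sets, was below 0.05. Much of the array differed between the states: 53.0% of all tested probe sets were called, 26.9% higher and 26.2% lower. Array medians lay between 3.05 and 3.12, and arrays correlated at 0.992 to 0.997 within a group and 0.940 to 0.947 between groups across the tested probe sets. All 12 fibroblast markers were above their array's 60th percentile on at least 1 array, and their summed linear signal was 127583 to 139855 in senescent and 135689 to 157482 in proliferating cells. All 9 leukocyte markers on the array, 8 of 10 endothelial markers and 8 of 10 epithelial markers stayed below that percentile on all arrays, whereas only DES did so among 8 smooth muscle markers. The epithelial exceptions moved in opposite directions. EPCAM averaged 4.18 ± 0.40 in senescent and 6.49 ± 0.06 in proliferating cells (limma adjusted p = 1.11e-06). SFTPC averaged 7.77 ± 0.13 in senescent and 7.43 ± 0.17 in proliferating cells (limma adjusted p = 0.0102). The summed linear signal of the smooth muscle markers was 11267 to 12515 in senescent and 6121 to 8559 in proliferating cells, of which ACTG2 alone held 85.8% in senescent and 92.0% in proliferating cells. The 7 tested smooth muscle markers went both ways: 3 rose, with SYNPO2 at 16.0-fold, 2 fell, MYOCD by 2.77 and MYH11 by 0.72 on the log2 scale, and 2 did not pass the test. Another MYH11 probe set was called in the opposite direction. The part of this list in the results was not tested. The RNA itself differed in quality signs. The ACTB control probe set at the 3′ end exceeded the one at the 5′ end by 2.32 ± 0.10 on senescent and 2.07 ± 0.14 on proliferating arrays (SD, n = 5 each), a difference of 0.25 with an exact permutation p of 0.00794, the lowest value possible with 252 ways of assigning the arrays. The same GAPDH measure was 0.12 ± 0.09 on senescent and −0.03 ± 0.18 on proliferating arrays (exact permutation p = 0.135), while the GAPDH 3′ probe set exceeded the middle one by 1.48 ± 0.06 on senescent and 1.25 ± 0.14 on proliferating arrays (exact permutation p = 0.00794). These signs moved with the groups, so values with the ACTB measure as a covariate are given where they end the call of a named gene. The ACTB measure itself did not overlap between the groups, at 2.24 to 2.47 on senescent and 1.85 to 2.19 on proliferating arrays. Covariate and state thus cannot be fully told apart, and the covariate can end a call without shrinking the difference. Whether RNA quality made any difference was not tested. The covariate ended the call of MYH11 (limma adjusted p = 0.397), and with it 2 smooth muscle markers rose and 1 fell.

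Of the 25 probe sets, 21 passed the filter, each of them on all 10 arrays. Of these 21, 14 rose in senescent cells, 5 fell and 2 did not pass the test, so that 90.5% were called, beside the 53.0% of all tested probe sets. The groups did not overlap for 16 of the 21, against 44.5% of all tested probe sets. The median difference was 0.26 over the members' probe sets and 0.03 over all tested probe sets, and the median size of the difference was 0.95 and 0.32. Probe sets of a gene share its transcripts, so the count by gene is smaller. Read through the tested probe set with the highest mean, called the leading probe set below, TGFB2, TGFBR2, ENG, LTBP2, INHBA and LTBP1 rose, TGFBR1 and TGFBR3 fell, TGFB1 did not pass the test and TGFB3 was not tested. Thus 8 of 9 tested genes were called, beside 60.2% of the 12909 genes tested in the same way (30.5% higher and 29.8% lower). The groups did not overlap for 6 of the 9, beside 51.8% of those genes. Since the arrays read bulk RNA, a change in the share of cells that express a gene and a change per cell cannot be told apart.

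**Figure D1:**
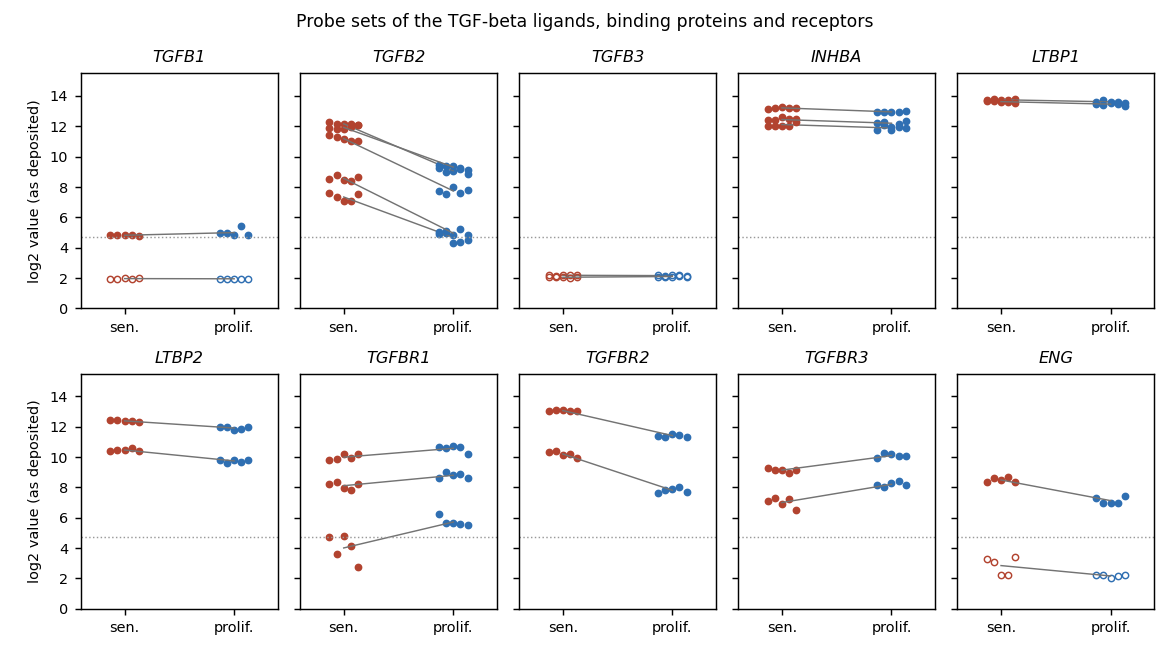
Log2 value of all 25 probe sets of the 10 genes on each array, with senescent cells (sen.) left of proliferating cells (prolif.) in each panel, filled points for tested and open points for untested probe sets, lines joining the group means of a probe set and a dotted line at the median of the arrays' 60th percentiles. Every TGFB2 and TGFBR2 probe set lies higher on the 5 senescent arrays, every TGFBR3 probe set lies lower, and both TGFB3 probe sets lie near 2.

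TGFB2, the ligand with the strongest need for betaglycan, rose more than any other member. Its leading probe set 209909_s_at read 12.31, 12.17, 12.15, 12.13 and 12.08 on the senescent arrays, against 9.22, 9.01, 9.08, 9.24 and 8.85 on the proliferating arrays. Every senescent array lay above every proliferating one, by far more than the spread within either group. The means were 12.17 ± 0.09 in senescent and 9.08 ± 0.16 in proliferating cells (SD, n = 5 each), a difference of 3.09 (95% interval 2.91 to 3.27), or 8.50-fold, with a limma adjusted p of 9.83e-10. Ranked by size among all 12909 genes, this increase was number 158.

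The other 4 TGFB2 probe sets moved the same way by different amounts. Probe set 220406_at averaged 8.57 ± 0.16 in senescent and 4.96 ± 0.29 in proliferating cells, a 12.2-fold difference (limma adjusted p = 1.18e-08). Probe set 220407_s_at averaged 11.19 ± 0.15 in senescent and 7.75 ± 0.19 in proliferating cells, a 10.9-fold difference (limma adjusted p = 2.25e-09). Probe set 228121_at averaged 11.93 ± 0.12 in senescent and 9.32 ± 0.13 in proliferating cells, which is 6.11-fold (limma adjusted p = 2.26e-09). All of these lay well outside the spread of their groups. For 209908_s_at the senescent values lay between 7.08 and 7.64 and the proliferating values between 4.30 and 4.94, a 6.32-fold difference (limma adjusted p = 4.85e-07). In none of the 5 did the groups overlap, and the exact permutation p was 0.00794 for each. The rise of 220406_at exceeded that of the leading probe set by 0.52 and that of 220407_s_at by 0.36, while that of 228121_at was smaller by 0.48, each with an exact permutation p of 0.0476 after adjustment over 12 such comparisons within members. Of these 12 comparisons, 6 passed the threshold and 6 did not. On the proliferating side, 220406_at lay above the array's 60th percentile on 4 of 5 arrays and 209908_s_at on 3 of 5. Their folds, and the 0.52, are therefore read against a low proliferating signal.

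The RefSeq promoter window of TGFB2, from 250 bases before to 50 bases after the start of its annotated transcript on the plus strand of GRCh38.p14 at chr1:218345086-218345385, is shown because this gene had the largest increase. Capitals mark the motifs searched, 5′ to 3′.

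TGFB2: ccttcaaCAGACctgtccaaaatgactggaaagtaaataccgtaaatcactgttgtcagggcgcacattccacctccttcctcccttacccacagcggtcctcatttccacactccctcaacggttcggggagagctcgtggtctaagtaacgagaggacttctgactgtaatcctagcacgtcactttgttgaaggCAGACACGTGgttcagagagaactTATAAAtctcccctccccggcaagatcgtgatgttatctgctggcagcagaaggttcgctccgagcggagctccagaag

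The motifs were searched on both strands in all 35116 RefSeq windows of this length. The SMAD box CAGAC occurs at positions -243 and -53 from the start in the TGFB2 window and in 45.3% of all windows. The E-box CACGTG at -49 shares 1 base with the second SMAD box, and 7.26% of all windows hold one. A TATA box, TATAAA, begins at -29, and 11.5% of all windows hold that motif. Each match is a string of letters and not a measured binding site. The 10 members have 21 windows in all, of which 11 hold CAGAC, 8 hold the GC box GGGCGG, 3 hold TATAAA (of INHBA, TGFB2 and TGFB3) and 2 hold CACGTG (of TGFB2 and TGFB3). The AP-1 motif TGACTCA is in 1 window, of TGFBR2, against 4.95% of all windows, and the cAMP response element TGACGTCA is in 1 window, of LTBP1, against 1.85%.

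TGFB1, the ligand usually measured in wound healing and fibrosis, did not pass the test. Its leading probe set 203085_s_at read 4.86, 4.82, 4.81, 4.85 and 4.77 on the senescent arrays, against 4.95, 4.95, 4.83, 5.40 and 4.86 on the proliferating arrays. The groups overlapped, and proliferating 4 stood above the rest. The signal was weak, just above the arrays' 60th percentile, with a mean percentile of 60.5 in senescent and 61.1 in proliferating cells. The difference was -0.18 (95% interval -0.40 to 0.05, limma adjusted p = 0.165, unadjusted exact permutation p = 0.0317). It was -0.08 without proliferating 4 (limma adjusted p = 0.194), and -0.28 with a limma adjusted p of 0.0237 when arrays were centred on housekeeping genes, over a range of 0.0237 to 0.494 across the alternatives. The second TGFB1 probe set, 203084_at, stayed below the filter on all arrays, at 1.95 to 1.98 in senescent and 1.94 to 1.96 in proliferating cells.

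TGFB3, the ligand known from mice for its part in palate closure, could not be assessed on these arrays. Its probe sets lay below the filter on every array. Probe set 1555540_at averaged 2.19 ± 0.02 in senescent and 2.16 ± 0.02 in proliferating cells, and 209747_at averaged 2.06 ± 0.03 in senescent and 2.11 ± 0.06 in proliferating cells (SD, n = 5 each). Values this low give no order between the groups.

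INHBA, which encodes the subunit of activin A, was high in both states and rose by a small amount. The leading probe set 227140_at read 13.17, 13.20, 13.29, 13.20 and 13.21 on the senescent arrays, against 12.93, 12.92, 12.95, 12.96 and 13.01 on the proliferating arrays. All senescent arrays lay above all proliferating arrays. The difference was 0.26 (95% interval 0.18 to 0.35), or 1.20-fold, with a limma adjusted p of 0.000188. The difference of INHBA 227140_at was 0.16 with arrays centred on housekeeping genes (limma adjusted p = 0.00854). The other INHBA probe sets gave differences of like size with overlapping groups. Probe set 204926_at averaged 12.12 ± 0.20 in senescent and 11.89 ± 0.14 in proliferating cells (limma adjusted p = 0.0882), and 210511_s_at averaged 12.45 ± 0.13 in senescent and 12.21 ± 0.15 in proliferating cells (limma adjusted p = 0.0345). The call of 210511_s_at was lost when any of senescent 1 to 4 or proliferating 1, 3 or 4 was left out (limma adjusted p between 0.0536 and 0.0754), with the ACTB covariate (0.156) and with arrays centred on housekeeping genes (0.21). That of 204926_at was gained without proliferating 2 (0.0415) and with the ACTB covariate (0.0151), and without senescent 5 its difference was 0.14 (0.136).

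LTBP1 and LTBP2 are large matrix glycoproteins of the same family, of which LTBP1 carries the latent ligand and LTBP2 is associated with fibrillin microfibrils and is not known to bind the latent complex. LTBP2 rose at both of its probe sets. Probe set 204682_at read 12.41, 12.42, 12.35, 12.38 and 12.34 on the senescent arrays, against 12.00, 11.95, 11.77, 11.86 and 11.95 on the proliferating arrays, and the groups stood apart. The difference was 0.47 (95% interval 0.36 to 0.58), or 1.39-fold (limma adjusted p = 1.87e-05). Probe set 223690_at averaged 10.46 ± 0.09 in senescent and 9.74 ± 0.08 in proliferating cells, a 1.64-fold difference without overlap (limma adjusted p = 2.68e-06). Its increase exceeded that of 204682_at by 0.24 (exact permutation p = 0.0476 after adjustment over the 12 comparisons).

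LTBP1 stood near the top of the scale in both states, and its increase was small. The leading probe set 202728_s_at read 13.72, 13.82, 13.72, 13.71 and 13.80 on the senescent arrays, against 13.58, 13.75, 13.59, 13.60 and 13.55 on the proliferating arrays. Proliferating 2 lay within the senescent range. The difference was 0.14 with a limma adjusted p of 0.0352. Probe set 202729_s_at averaged 13.63 ± 0.06 in senescent and 13.46 ± 0.07 in proliferating cells, a difference of 0.17 without overlap (limma adjusted p = 0.0119). The call of 202728_s_at was lost without senescent 2 or 5, or proliferating 1, 3, 4 or 5 (limma adjusted p between 0.0649 and 0.0761), and that of 202729_s_at with the ACTB covariate (0.276). Centring on housekeeping genes ended both calls, with adjusted p values of 0.648 for 202728_s_at and 0.313 for 202729_s_at.

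The signalling receptors moved in opposite directions. TGFBR2, the type II receptor that binds the ligand, rose at both probe sets. Its leading probe set 208944_at read 13.06, 13.10, 13.10, 13.02 and 13.02 on the senescent arrays, against 11.41, 11.34, 11.49, 11.46 and 11.35 on the proliferating arrays. No array of either group came near the other group's range. The difference was 1.65, or 3.13-fold, with a standard error of 0.04 and a limma adjusted p of 1.02e-09. Probe set 207334_s_at averaged 10.20 ± 0.17 in senescent and 7.80 ± 0.16 in proliferating cells, a 5.26-fold difference (limma adjusted p = 2.08e-08). Its increase exceeded that of the leading probe set by 0.75 (exact permutation p = 0.0476 after adjustment over the 12 comparisons).

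TGFBR1, the type I receptor kinase that acts on the SMADs, fell at all 3 of its probe sets. The leading one, 224793_s_at, read 9.79, 9.84, 10.21, 9.91 and 10.17 on the senescent arrays, against 10.63, 10.60, 10.75, 10.69 and 10.20 on the proliferating arrays. Proliferating 5 lay within the senescent range and the other 4 above it. The difference was -0.59, which is 1.50-fold, with a 95% interval of -0.86 to -0.32 (limma adjusted p = 0.00217). It was -0.68 without proliferating 5. Probe set 206943_at averaged 8.11 ± 0.21 in senescent and 8.79 ± 0.16 in proliferating cells, without overlap (limma adjusted p = 0.000438). Probe set 236561_at, a weak one, averaged 4.01 ± 0.85 in senescent and 5.72 ± 0.29 in proliferating cells, and the senescent arrays spread from 2.77 to 4.81 (limma adjusted p = 0.00264). On the senescent side this probe set lay above the array's 60th percentile on 1 of 5 arrays, so its 3.27-fold difference is read against a low signal. Its change differed from that of the leading probe set by -1.12 (exact permutation p = 0.0476 after adjustment over the 12 comparisons).

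The coreceptors also parted. TGFBR3, or betaglycan, which hands ligand to TGFBR2, had the largest decrease among the members by leading probe set. Probe set 226625_at read 9.28, 9.17, 9.12, 8.95 and 9.16 on the senescent arrays, against 9.94, 10.25, 10.18, 10.04 and 10.04 on the proliferating arrays. All senescent arrays lay below all proliferating arrays. The difference was -0.95 (95% interval -1.13 to -0.78), or 1.94-fold (limma adjusted p = 2.51e-06). Probe set 204731_at averaged 7.00 ± 0.32 in senescent and 8.20 ± 0.14 in proliferating cells, a 2.30-fold difference without overlap (limma adjusted p = 5.46e-05). Ranked by size among the decreases of all genes, the leading probe set was number 1400.

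The promoter window of TGFBR3 lies on the minus strand of chromosome 1 at chr1:91886102-91886401 (GRCh38.p14, RefSeq) and is shown because this gene had the largest decrease. Capitals mark its GC boxes, GGGCGG or its complement, at positions -136 and -54.

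TGFBR3: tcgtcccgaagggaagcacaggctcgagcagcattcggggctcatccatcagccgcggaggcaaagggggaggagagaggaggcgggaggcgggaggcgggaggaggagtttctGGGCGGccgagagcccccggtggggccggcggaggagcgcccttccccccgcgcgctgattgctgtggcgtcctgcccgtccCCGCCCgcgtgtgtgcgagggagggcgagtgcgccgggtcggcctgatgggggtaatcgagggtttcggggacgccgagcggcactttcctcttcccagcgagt

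GC boxes are in 45.0% of all windows. The TGFBR3 window holds none of the SMAD box, AP-1, cAMP response, E-box and TATA motifs that were searched, which says only that these letters are not in these 300 bases. It is 71.7% G and C, against 51.7% for the TGFB2 window and a median of 58.7% over all windows.

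ENG, or endoglin, is best known as a TGF-beta coreceptor of endothelial cells. It rose, with 201809_s_at at 8.37, 8.60, 8.46, 8.67 and 8.34 on the senescent arrays, against 7.31, 6.99, 6.96, 6.96 and 7.40 on the proliferating arrays. The groups did not overlap. The difference was 1.36 (95% interval 1.12 to 1.61), or 2.57-fold (limma adjusted p = 2.60e-06). The second ENG probe set, 201808_s_at, did not pass the filter, with 3.25, 3.11, 2.22, 2.24 and 3.40 on the senescent arrays and 2.03 to 2.22 on the proliferating arrays. Beside this, the endothelial markers PECAM1, CDH5, VWF, TIE1, ERG, CLDN5, EMCN and ESAM stayed below their arrays' 60th percentile throughout. ROBO4 and TEK were above it on at least 1 array and moved in opposite directions. TEK averaged 10.52 ± 0.12 in senescent and 9.90 ± 0.18 in proliferating cells (limma adjusted p = 0.000192), with another TEK probe set moving the opposite way. ROBO4 averaged 4.34 in senescent and 5.04 in proliferating cells (limma adjusted p = 0.0057, or 0.0571 with the ACTB covariate). The summed linear signal of the list was 1439 to 1677 in senescent and 838 to 1117 in proliferating cells, of which TEK held 95.9% in senescent and 92.8% in proliferating cells. The part of that list in the ENG result was not tested.

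**Figure D2:**
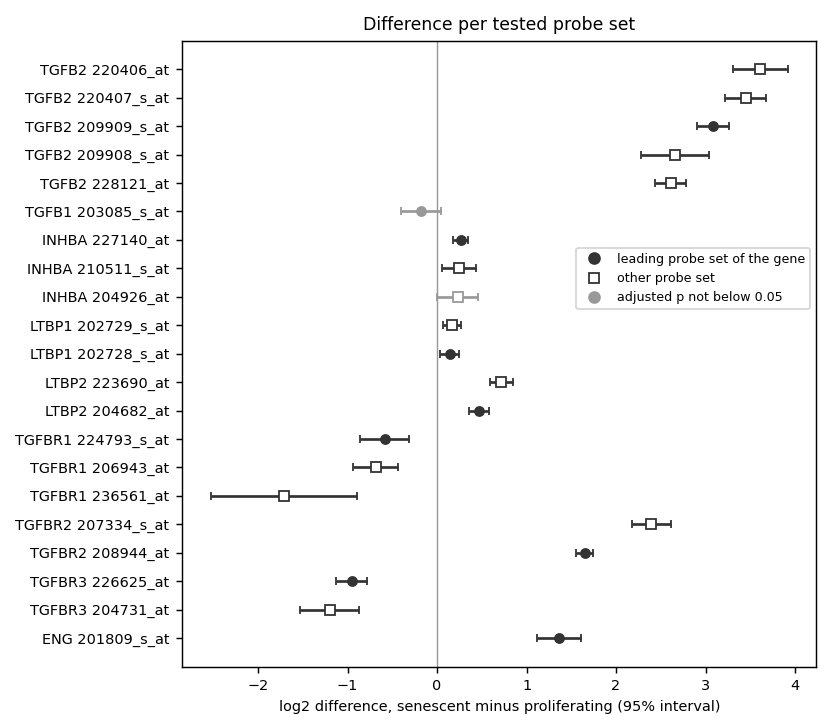
Difference of senescent minus proliferating means, in log2 units, for each of the 21 tested probe sets, with 95% confidence intervals, filled circles for leading and open squares for other probe sets, grey where the test was not passed, and a line at 0. Probe sets of TGFB2, TGFBR2, ENG and LTBP2 lie to the right of 0 and those of TGFBR1 and TGFBR3 to the left, while INHBA, LTBP1 and TGFB1 lie close to it.

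By size of the leading difference the members ran from TGFB2 (3.09) through TGFBR2 (1.65), ENG (1.36), LTBP2 (0.47), INHBA (0.26), LTBP1 (0.14), TGFB1 (-0.18) and TGFBR1 (-0.59) to TGFBR3 (-0.95). The 95% intervals of 5 of the 8 neighbouring pairs overlapped: TGFBR2 and ENG, INHBA and LTBP1, LTBP1 and TGFB1, TGFB1 and TGFBR1, and TGFBR1 and TGFBR3. The spread within a group was close to that of other probe sets: the median SD of the 21 probe sets was 0.128 on senescent and 0.147 on proliferating arrays, against 0.134 and 0.146 over all tested probe sets.

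Whether the members of a role changed unequally was tested on the difference of their leading probe sets within each array, for 5 pairs. Such a difference shows unequal change and not which gene is more abundant. All 5 pairs changed unequally, with no overlap between the groups. The exact permutation p was 0.00794 for each, two-sided and adjusted over the 5, which is the smallest it can be. The groups did not overlap for 51.8% of single genes, and the share among other pairs of genes was not computed. The pairs were chosen with earlier results of these data known. TGFBR2 and TGFBR1, and likewise ENG and TGFBR3, were already called in opposite directions, so their unequal change follows from those calls. TGFB2 minus TGFB1 was 7.34 ± 0.07 in senescent and 4.08 ± 0.18 in proliferating cells (SD, n = 5 each), a change of 3.26. INHBA minus TGFB1 was 8.39 ± 0.07 in senescent and 7.95 ± 0.24 in proliferating cells, a change of 0.44. TGFB1 lay just above the arrays' 60th percentile, so its pairs rest on a weak signal of that gene. TGFBR2 minus TGFBR1 was 3.07 ± 0.20 in senescent and 0.84 ± 0.18 in proliferating cells. The RNA signal of these probe sets thus moved by 2.24, or 4.71-fold, towards TGFBR2. Other probe sets of both genes changed by other amounts, and receptor protein was not measured. For the coreceptors, TGFBR3 minus ENG was 0.65 ± 0.25 in senescent and 2.97 ± 0.31 in proliferating cells, a change of -2.32, or 4.98-fold towards ENG. LTBP2 minus LTBP1 was -1.37 ± 0.06 in senescent and -1.71 ± 0.12 in proliferating cells, a change of 0.33. The pairs with TGFB3 were not run because it had no tested probe set.

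**Figure D3:**
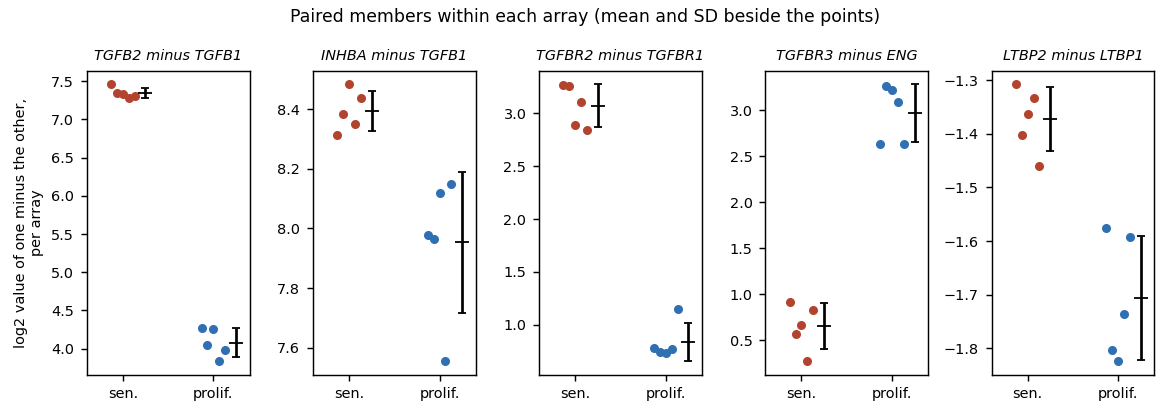
Per-array log2 difference of the leading probe sets of 5 pairs of members, senescent cells (sen.) left of proliferating cells (prolif.) in each panel, with the mean and SD of each group beside its 5 points and a separate vertical scale for each pair. The groups do not overlap in any pair, and the differences between group means run from 3.26 for TGFB2 minus TGFB1 to -2.32 for TGFBR3 minus ENG.

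The genes around these members were read from 5 lists, each gene by its leading probe set. Proteins that hold or free the latent ligand changed in both directions. Of 13 tested, 6 rose, 3 fell and 4 did not pass the test, which is 69.2% called beside 60.2% of all genes tested, with a median difference of 0.16 beside 0.04 over all genes. With the ACTB covariate 4 rose and 3 fell. ITGB5, an integrin subunit of a TGF-beta activating integrin, averaged 12.99 ± 0.11 in senescent and 11.44 ± 0.36 in proliferating cells (limma adjusted p = 1.46e-05). FURIN, the protease that cleaves the propeptide, averaged 8.26 ± 0.13 in senescent and 7.65 ± 0.43 in proliferating cells (limma adjusted p = 0.0167). LTBP3, a further latent TGF-beta binding protein, averaged 5.58 ± 0.20 in senescent and 5.08 ± 0.11 in proliferating cells (limma adjusted p = 0.00159). The falls included much larger ones. BGN, or biglycan, a matrix proteoglycan that binds TGF-beta, averaged 3.88 ± 0.30 in senescent and 9.61 ± 0.49 in proliferating cells, a 53.1-fold difference against a low senescent signal (limma adjusted p = 2e-08). FBN2, a fibrillin of the microfibrils to which latent complexes are tethered, averaged 8.45 ± 0.23 in senescent and 11.44 ± 0.13 in proliferating cells, a 7.95-fold difference (limma adjusted p = 9.52e-09). ITGB8, a subunit of another activating integrin, averaged 3.05 ± 0.59 in senescent and 4.83 ± 0.67 in proliferating cells with overlapping groups (limma adjusted p = 0.00197), low on the senescent arrays. It was not tested with the 60th percentile filter.

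In the activin arm, 3 genes rose, 5 fell and 3 did not pass the test of the 11 tested (72.7% called beside 60.2% of all genes tested, and a median difference of 0.08 beside 0.04). With the ACTB covariate 1 rose and 5 fell, and the median was -0.03 after centring on housekeeping genes. The falls included ligand subunits and an antagonist. INHBE, an activin subunit best known from liver, averaged 3.51 ± 0.72 in senescent and 8.61 ± 1.22 in proliferating cells, a 34.4-fold difference against a low senescent signal (limma adjusted p = 3.17e-05). INHBB, the subunit of activin B, averaged 4.83 ± 0.44 in senescent and 6.50 ± 0.14 in proliferating cells, a 3.18-fold difference (limma adjusted p = 3.24e-05). FST, or follistatin, the secreted inhibitor that binds activin, averaged 12.08 ± 0.15 in senescent and 12.90 ± 0.04 in proliferating cells, a 1.77-fold difference (limma adjusted p = 4.07e-06). GDF11, a ligand of the activin receptors, rose, at 10.48 ± 0.13 in senescent and 8.94 ± 0.19 in proliferating cells, a 2.91-fold difference (limma adjusted p = 4.14e-07). The activin receptors ACVR1B (difference 0.41, limma adjusted p = 0.00326) and ACVR2A (0.25, 0.0476) rose slightly, and with the ACTB covariate neither passed the test (adjusted p = 0.185 for ACVR1B and 0.78 for ACVR2A). Left-out arrays also ended the call of ACVR2A, at adjusted p values of 0.0634 to 0.105 without senescent 1, 2, 3 or 4 or proliferating 2, 3, 4 or 5.

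Among SMADs and their nuclear cofactors, 2 of 12 tested genes rose, 5 fell and 5 did not pass the test (58.3% called beside 60.2% of all genes tested, and a median difference of -0.19 beside 0.04). With the ACTB covariate 3 rose and 6 fell. SMAD3, a receptor-activated SMAD, averaged 11.93 ± 0.08 in senescent and 12.75 ± 0.04 in proliferating cells, a 1.77-fold difference without overlap (limma adjusted p = 1.62e-07). SMAD4, the SMAD shared with the bone morphogenetic protein pathway, averaged 9.78 ± 0.21 in senescent and 10.52 ± 0.19 in proliferating cells (limma adjusted p = 0.000339). SMAD2, the other receptor-activated SMAD, named after its value was seen, did not pass the test, with a difference of -0.17 (limma adjusted p = 0.0681). The corepressor TGIF2 averaged 4.20 ± 0.34 in senescent and 5.58 ± 0.07 in proliferating cells (limma adjusted p = 1.79e-05), low on the senescent arrays. ZFYVE9, which presents SMADs to the receptor, rose, at 9.27 ± 0.16 in senescent and 8.80 ± 0.12 in proliferating cells (limma adjusted p = 0.000924). FOXH1, a SMAD partner known from early embryos, averaged 4.12 ± 0.41 in senescent and 2.49 ± 0.17 in proliferating cells (limma adjusted p = 3.02e-05), low signal in both.

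Of 10 intracellular and membrane inhibitors of the pathway, 7 rose, 1 fell and 2 did not pass the test, beside 30.5% of all genes tested that rose and 29.8% that fell. Their median difference was 0.42, beside 0.04 over all genes. With the ACTB covariate 5 rose and 1 fell, as on centring on housekeeping genes, and 4 rose and 0 fell when a gene's probe sets were averaged. FKBP1A, named after its value was seen, rose by 0.15 while another of its probe sets was called in the opposite direction. Its call ended with the ACTB covariate (limma adjusted p = 0.0858). BAMBI, a decoy receptor without a kinase, averaged 9.85 ± 0.13 in senescent and 7.50 ± 0.17 in proliferating cells, a 5.10-fold difference (limma adjusted p = 1.48e-08). SMAD7, the inhibitory SMAD that blocks TGFBR1 and is itself induced by TGF-beta, averaged 7.16 ± 0.24 in senescent and 5.13 ± 0.38 in proliferating cells, a 4.07-fold difference (limma adjusted p = 6.94e-06). SMURF2, a ubiquitin ligase that SMAD7 brings to the receptor, averaged 13.93 ± 0.03 in senescent and 13.23 ± 0.03 in proliferating cells, a 1.62-fold difference (limma adjusted p = 7.52e-08). STRAP, which works with SMAD7, moved the other way by -0.15 (limma adjusted p = 0.0248), a call that was lost without senescent 4 (0.0613) or proliferating 1 (0.0542) or 5 (0.0546).

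Commonly cited TGF-beta target genes split almost evenly. Of 30 in the list, 29 had a probe set named to them alone and all 29 were tested: 10 rose, 8 fell and 11 did not pass the test (62.1% called beside 60.2% of all genes tested, and a median difference of 0.04 beside 0.04). With the ACTB covariate 7 rose and 7 fell. After centring on housekeeping genes, which shifted the median of all tested probe sets by -0.105, 8 rose, 12 fell and the median was -0.06. CDKN2B, the cell cycle inhibitor p15, averaged 7.72 ± 0.32 in senescent and 5.44 ± 0.31 in proliferating cells, a 4.84-fold difference (limma adjusted p = 2.56e-06). TSC22D1, a transcriptional regulator first found as induced by TGF-beta, averaged 11.73 ± 0.05 in senescent and 10.25 ± 0.10 in proliferating cells (limma adjusted p = 1.07e-08). TIMP3, an inhibitor of matrix proteases, averaged 13.81 ± 0.10 in senescent and 12.49 ± 0.11 in proliferating cells (limma adjusted p = 8.94e-08). The largest falls were HAS2, which makes hyaluronan, at 6.35 ± 0.45 in senescent and 10.03 ± 0.12 in proliferating cells, or 12.9-fold (limma adjusted p = 9.98e-08), and POSTN, or periostin, a matrix protein, at 7.94 ± 0.32 in senescent and 11.25 ± 0.19 in proliferating cells, or 9.93-fold (limma adjusted p = 4.45e-08). IL11, a cytokine induced by TGF-beta in fibroblasts, averaged 10.39 ± 0.11 in senescent and 12.14 ± 0.47 in proliferating cells, a 3.37-fold difference (limma adjusted p = 3.26e-05). Some other targets often used as readouts, named here after their values were seen, had small differences, some of which passed the test: these were 0.09 for CCN2 (limma adjusted p = 0.199), 0.01 for TGFBI (0.915), -0.20 for COL1A1 (0.0299), 0.14 for FN1 (0.0252) and 0.31 for ACTA2 (0.00304). With the ACTB covariate none of COL1A1, FN1 and ACTA2 passed the test (adjusted p = 0.148, 0.333 and 0.0982), at differences of -0.22, 0.09 and 0.24. Further targets, also named after their values were seen, passed without and with the covariate. The differences were 0.41 for TAGLN (limma adjusted p = 0.00462 without and 0.000835 with it) and 1.17 for IGFBP7 (1.05e-06 and 8.03e-05). They were -0.50 for COL3A1 (0.000812 and 0.0111) and -0.58 for SNAI2 (2.87e-06 and 0.00016).

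**Figure D4:**
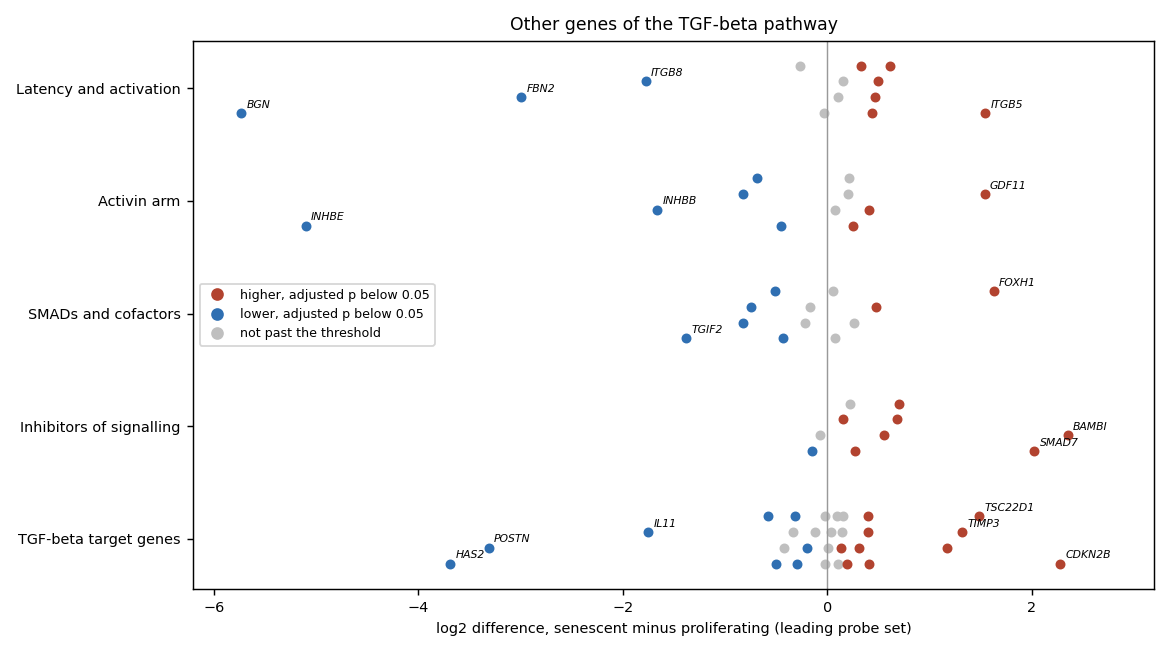
Difference of senescent minus proliferating means, in log2 units, for the tested genes of the 5 pathway lists, each point 1 gene by its leading probe set, red where it rose, blue where it fell and grey where it did not pass the test, spread vertically only for legibility, with named genes labelled where the difference exceeds 1. BGN at -5.73 and INHBE at -5.10 lie furthest to the left, and BAMBI at 2.35 and CDKN2B at 2.28 furthest to the right.

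For the 3 members with the largest differences, the 12900 other genes were ranked by the root mean square difference over the 10 arrays between log2 values each taken relative to its own proliferating mean. The nearest to TGFB2 were THRB, a thyroid hormone receptor (0.149), CLDN1, a tight junction claudin (0.158), and C8orf34 (0.161), with differences between states of 3.19, 3.05 and 3.16. Nearest to TGFBR2 were ASAH1 (0.0483), the lysosomal acid ceramidase, CTSD (0.0656), the lysosomal protease cathepsin D, and MAP1LC3B (0.0702), an autophagosome protein, with differences of 1.70, 1.64 and 1.67. Nearest to ENG were SEC11C (0.100), a signal peptidase subunit, TTC13 (0.109) and ABLIM3 (0.117), an actin-binding protein, with differences of 1.43, 1.38 and 1.39. With 2 states this measure ranks mostly genes of like fold change, and it says nothing of shared control.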

How the data were processed

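Total RNA of 5 senescent and 5 proliferating IMR90 samples was read on Affymetrix arrays. The authors deposited 1 log2 value per probe set and array. Base 2 was inferred from how far the values range. Per the submitters' processing notes, Partek and GCRMA were used; GCRMA corrects probe signals for background by their base composition and summarises them per probe set. Versions, order and settings: not given in the sources used here. Detection calls and scan dates were not used here, so scan batches were not tested. The number of arrays limits the precision.

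Probe sets were named from the platform annotation, updated through RefSeq gene identifiers (GRCh38.p14): 41091 carried 1 symbol, 1801 several and 11721 none, and 62 controls were left out. A suffix of _s_at marks probes shared between similar transcripts, and _x_at marks sets with probes that can also match other sequences. BGN, ITGB5, LTBP3 and FN1 were among the genes read by an _x_at probe set. Probe sets above the 40th percentile of their array on 5 or more of 10 arrays were tested. Differences were tested with limma 3.58.1 (lmFit, then eBayes, two-sided; R 4.3.3) and adjusted over 32732 probe sets. Single values used an exact permutation test over 252 assignments. The limma and permutation code was tested on simulated data.

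The members, the lists, the tests and the rule for named genes were chosen with earlier results of these data known. Named were all members, the 3 called genes of each list with the largest difference in each direction, and any that moved against 80% of its list's calls. The genes most like a member were named by rank, and single cell type markers after their values were seen. Others are marked in the text as named after their values were seen. Promoters came from RefSeq windows, matched by symbol for all 10 members. Alternatives changed the filter, the centring, the variance model, the choice of probe set and the arrays used, or added the replicate number or the ACTB control as a term.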

Additional observations from a re-analysis of the deposited data

Results flagged for a closer look

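Within groups of 5 arrays, a highest or lowest array was marked where its gap to the nearest other array exceeded Dixon's 95% critical value of the group's range. Of 114 groups checked, 11 were marked, and chance marks about 1 in 20.

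Among the members, TGFB1 (203085_s_at) read 5.40 on proliferating 4 and 4.83 to 4.95 on the other proliferating arrays. TGFB3 (209747_at) read 2.20 on proliferating 4 and at most 2.10 on the others, below the filter throughout. INHBA (204926_at) read 12.47 on senescent 5 and 12.02 to 12.05 on the other senescent arrays. LTBP1 (202728_s_at) read 13.75 on proliferating 2 and 13.55 to 13.60 on the others, and its difference without that array was 0.17. LTBP2 (223690_at) read 10.62 on senescent 4 and 10.38 to 10.45 on the others, with a difference of 0.68 without it. TGFBR1 (236561_at) read 6.21 on proliferating 1 and 5.49 to 5.67 on the others, with a difference of -1.58 without it.

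The remaining marks concern proliferating 5. TGFBR1 (224793_s_at) read 10.20 there and 10.60 to 10.75 on the other proliferating arrays, which also set TGFBR2 minus TGFBR1 to 1.15 there, against 0.74 to 0.78. ITGB5 (214021_x_at) read 10.81 there and 11.48 to 11.69 on the others, and its difference without that array was 1.39. INHBE (210587_at) read 6.43 there and 8.95 to 9.27 on the others, with a difference of -5.65 without it. IL11 (206924_at) read 11.30 there and 12.25 to 12.42 on the others, with a difference of -1.96 without it.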

How the results depend on the processing

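No called probe set or pair of members changed sign under any alternative run. On centring on housekeeping genes the median of the target list turned to -0.06, with 8 rising and 12 falling, and that of the activin arm to -0.03. Of 429 repeats of single member probe sets, 402 kept direction and side of the threshold, 22 lost the call and 5 gained it. Of 538 repeats of named pathway genes, 520 kept both and 18 lost the call. When arrays were left out in turn, 12 to 15 member probe sets rose and 5 fell, and 5 to 6 member genes rose and 2 fell. Centring on housekeeping genes left 11 member probe sets rising and 6 falling, and among all calls the share that were higher was 39.6% against 50.7%. The ACTB covariate left 13 rising and 5 falling.

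Counts over lists moved by more than 1.5 times as follows. Rising SMADs and cofactors numbered 1 with the 60th percentile filter and 4 when a gene's probe sets were averaged. Rising inhibitors numbered 4 on that average. Falling inhibitors numbered 0 when centred on tested probe sets, with the replicate block or on that average, and 0 to 1 with arrays left out. Rising genes of the activin arm numbered 1 with the ACTB covariate. The cause was not tested.

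The labels number the replicates alike in both states, but same-numbered arrays correlated at only -0.0567 to 0.0905 in their deviations, and 2 of 5 arrays correlated best with their own number. No pairing by number was seen in the values, though so few arrays cannot show that there was none. With the replicate block, 12 member probe sets rose and 5 fell, and the paired members differed by 3.26 for TGFB2 and TGFB1, 0.44 for INHBA and TGFB1, 2.24 for TGFBR2 and TGFBR1, -2.32 for TGFBR3 and ENG and 0.33 for LTBP2 and LTBP1, where an exact sign-flip permutation test of 5 pairs cannot go below p = 0.0625.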
